A study of Mus musculus with 16 samples.

Results

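The genes described here encode the proteins of the cytosolic ribosome, the particle that translates messenger RNA. They were chosen by their symbols: Rpl or Rps followed by a number with an optional a, x or l, together with Rplp0, Rplp1, Rplp2 and Rpsa, leaving out symbols that end in -ps with a number, which name pseudogenes. Of the symbols listed, 83 matched, and 82 of these had at least 1 UMI (unique molecular identifier, the count of 1 captured RNA molecule), out of 41193 symbols with a UMI. The members are 50 genes of the large subunit and 32 of the small subunit. The matching symbol without a UMI was Rpl10l, a testis paralog of Rpl10: it was found in 0 of 18203 cells, which allows a share of cells with a UMI of up to 0.0165%.

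Spinal cords of adult mice were dissociated into single cells and sequenced from the 3′ ends of their RNAs, either without injury or 1, 7 or 14 days after a lesion of the cervical dorsal columns. The cKO mice carried floxed alleles of Ryk, a Wnt receptor, with a tamoxifen-inducible Cre under the GFAP promoter, which is active in astrocytes, and the WT mice carried the same Cre with unfloxed Ryk and also received tamoxifen. There were 2 mice of 8 to 10 weeks per genotype and time, 16 in all, but 1 of them (WT 1 d replicate 2) had 1 cell and was not used. The other 15 mice held from 536263 to 9008729 UMIs each, with a median of 414 to 3637 UMIs per cell.

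The libraries differed in ways that the groups do not explain. Animal numbers fall below 10000 for 6 mice: replicate 1 of both genotypes at the uninjured, 1 d and 7 d points. In 4 of these, the 1 d and 7 d mice, the median depth was 414 to 548 UMIs per cell, and pairs of them shared 28 to 115 cell barcodes, against at most 4 in any other pair of mice. The largest pair was WT 1 d replicate 1 with WT 7 d replicate 1, where 108 of the 115 shared barcodes lay in the same cluster. Of 17937 distinct barcodes, 166 occurred in more than 1 mouse.

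For 6 other mice the cell names give another condition than the sample titles, while the cell table and the titles give the same one. These are replicate 2 of WT and cKO uninjured, WT 1 d, WT 7 d, WT 14 d and cKO 14 d. The titles were followed here.

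Composition within the ribosomal protein genes set 3 libraries apart: WT uninjured replicate 2, cKO uninjured replicate 2 and cKO 1 d replicate 2. Rps12, a small subunit protein, held 0.965%, 0.945% and 1.11% of their ribosomal protein UMIs, against 1.64% to 2.39% in the other 12 mice. Rpl12, a large subunit protein at the base of the stalk that binds translation factors, held 0.388% and 0.380% in the uninjured pair, below the 0.632% to 1.17% of the remaining 13 mice. In endothelial cells of the same 3 libraries, the 10 astrocyte marker genes, led by Slc1a2, summed to 0.212%, 0.161% and 0.174% of UMIs, while the other 12 mice lay between 0.0136% and 0.0671%. Their mitochondrially encoded RNAs in these cells stood at 5.76%, 6.17% and 4.73%, above the highest value of 3.61% elsewhere. Both uninjured replicates 2 are therefore in this set, and both uninjured replicates 1 are among the low animal numbers, so the median changes of the members over time are given below with and without each set.

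Ryk itself, counted over the astrocyte clusters, ranged from 54.0 to 157 CPM (UMIs per 1000000 UMIs) in the 7 WT mice (median 108) and from 23.0 to 123 in the 8 cKO mice (median 87.6). The ranges overlap, and the 3′ tag may lie outside the deleted part of the gene, so this value checks nothing.

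Cells need ribosomes in proportion to the protein they make, and most genes of this group are transcribed in every nucleated cell. Their messenger RNAs begin with a tract of pyrimidines that couples their translation to mTOR signalling. Each ribosome holds 1 copy of nearly every one of these proteins, apart from the paired acidic proteins of the stalk.

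Ribosomal protein genes took 2529003 of 53347407 UMIs, or 4.74%, and the large subunit held 54.8% of these. The most abundant member was Rps29, a zinc-binding protein of the small subunit, at 2506 ± 916 CPM (SD, n = 15 mice, all cells summed). Rpl41, the smallest large subunit protein, followed at 1542 ± 540, and Rplp1, an acidic stalk protein, at 1427 ± 363. Next came Rps21 of the small subunit at 1167 ± 281 and Rpl37 of the large subunit at 1054 ± 338. Together these 5 held 16.4% of the group's UMIs.

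Abundance had a broad upper range and a thin tail. A mean above 100 CPM was reached by 77 members, the lowest of them being Rpl13a at 115. The tail consisted of Rps4l at 29.9 ± 10.6, Rpl32l at 4.3 ± 3.59, Rpl6l at 2.27 ± 1.54, Rpl3l at 1.13 ± 0.699 and Rpl39l at 0.867 ± 1.48. The annotation lists the first 3 of these as pseudogenes, whereas Rpl3l and Rpl39l are protein-coding paralogs known from striated muscle and from testis. A 3′ tag counts each molecule once whatever its length, and near-identical pseudogene copies can take reads from their parent genes. The 240 pseudogene symbols left out by the naming rule held 11866 UMIs, equal to 0.469% of the members' UMIs.

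The members are short genes scattered over the genome. The 79 protein-coding members have a median transcript of 906 bases, counting the longest coding transcript of each, with 5 exons, against 2679 bases and 7 exons over all 21810 coding genes. All 82 members together lie on 19 chromosomes, most often on chromosome 7, which holds 14. Rps29 lies on the minus strand of chromosome 12 from 69157722 to 69159186, and Rpl23a, the gene with the clearest change over time below, on the minus strand of chromosome 11 from 78180932 to 78183584 (GRCm38).

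Before clusters were compared, their names were checked against marker genes. Of the 12 lists of markers, the one for the named cell type had the highest ratio to the other clusters in every cluster but Clusters 2 and 13. Cluster 2 (Astro) was led by the Schwann cell list at a ratio of 3.99, with Mbp as its most abundant gene and 1 of 6 genes higher there. Its astrocyte list stood at a ratio of 3.26 with 8 of 10 genes higher, and its neuron list had 7 of 10 genes higher. Cluster 13 (Unk) was led by the ependymal list, with 6 of 6 genes higher and a ratio of 105. Both clusters keep their labels here.

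The immune cluster 12 and the microglial cluster 10 devoted the largest shares of their RNA to ribosomal proteins and Cluster 7 astrocytes the smallest. Cluster 12 (Immuno) stood at 14.1% ± 3.12 (SD, n = 10 mice) and Cluster 10 (Microglial) at 13.3% ± 1.56 (n = 14), whereas Cluster 7 (Astro) stood at 0.787% ± 0.228 (n = 15). Within the same mouse, the Cluster 10 share was a median of 16.9 times that of Cluster 7, with 14 of 14 mice in that order and ranges that do not meet. Cluster 12 exceeded Cluster 7 in 10 of 10 mice, by a median of 16.6 times. The order of Clusters 12 and 10 was not settled, since Cluster 12 was higher in 5 of 10 mice. These are descriptions without a test, because clusters were formed from the same genes.

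Clusters that carry the same name differed, most of all from Cluster 7 among the astrocytes. Among the microglial clusters, Cluster 10 exceeded Cluster 6 (9.23% ± 1.76, n = 14) in 14 of 14 mice, with a median ratio of 1.49 (1.01 to 1.78) and ranges that overlap. Among the astrocyte clusters, Cluster 2 stood at 6.65% ± 1.78 (n = 11) and Cluster 5 at 4.45% ± 2.17 (n = 14). Cluster 2 exceeded Cluster 7 in 11 of 11 mice by a median of 9.45 times, and Cluster 5 did so in 14 of 14 by 5.36 times. Clusters 2 and 5 lay closer, with a median ratio of 1.27 and 10 of 11 mice in that order. In the oligodendrocyte clusters the median ratio was 1.34, with Cluster 8 at 3.64% ± 2.09 (n = 14) above Cluster 4 at 2.43% ± 0.913 (n = 15) in 10 of 14 mice.

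Vascular and stromal cells lay between these extremes. Endothelial cells (Cluster 1) held 5.18% ± 0.987 (n = 15), fibroblasts (Cluster 14) 7.34% ± 2.20 (n = 9) and pericytes (Cluster 9) 4.09% ± 0.820 (n = 15). Endothelial cells exceeded Cluster 4 oligodendrocytes in 15 of 15 mice, by a median of 2.29 times, and were themselves below Cluster 6 microglia in 14 of 14. Schwann cells (Cluster 15) held 4.89% ± 1.00 (n = 5), Cluster 13 4.2% ± 1.81 (n = 10) and oligodendrocyte precursors (Cluster 11) 2.64% ± 1.29 (n = 14). Neurons (Cluster 3), at 1.36% ± 0.389 (n = 15), were above Cluster 7 astrocytes in 14 of 15 mice. Myeloid cells (Cluster 16, 4.86% ± 3.90, n = 5) and red blood cells (Cluster 17, 8.27% ± 5.08, n = 4) varied too much between mice to be placed.

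**Figure D1:**
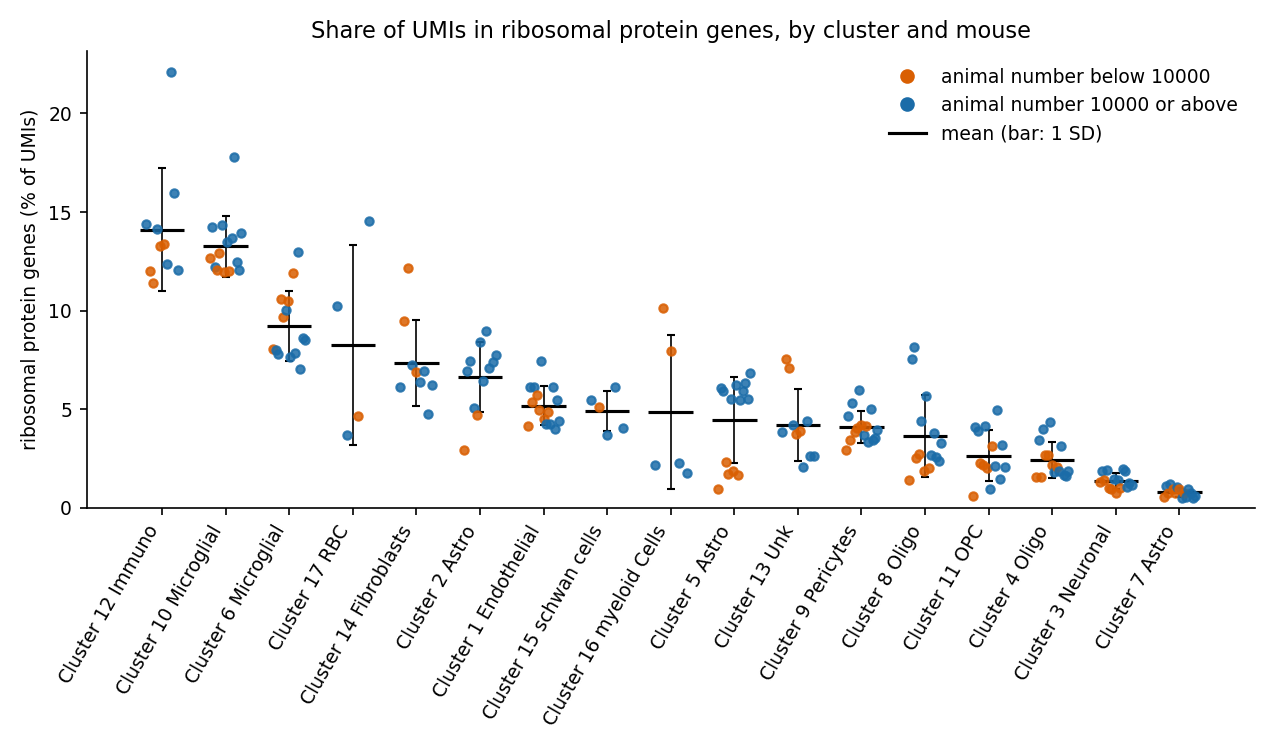
Share of UMIs in ribosomal protein genes (percent, y axis) in each of the 17 clusters (x axis, highest mean first). Points are mice with at least 10 cells in the cluster, orange for animal numbers below 10000 and blue for the others, lines are means and bars 1 SD. Cluster 12 has the highest mean, 14.1%, and Cluster 7 the lowest, 0.787%.

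Some of these shares differed between the mice with low animal numbers and the others. No mouse at 14 d has a low animal number, so these sets also differ in time, and the cause was not tested. In Cluster 5 astrocytes the 5 mice with low animal numbers averaged 1.70% and the other 9 averaged 5.97%. Cluster 2 showed the same split with 3.82% in 2 mice against 7.28% in 9, and Cluster 8 oligodendrocytes with 2.10% in 5 against 4.49% in 9. Others ran the other way: Cluster 16 with 9.05% in 2 mice against 2.07% in 3, Cluster 13 with 5.56% in 4 against 3.29% in 6, and fibroblasts with 9.51% in 3 against 6.26% in 6. In Cluster 17, 1 mouse had 4.65% and the other 3 averaged 9.48%. In Cluster 10 both sets lay close together, at 12.3% and 13.8%. In Cluster 7 the means over all times were 0.769% and 0.799%. Within times the sets differed there: mice with low animal numbers were lower among uninjured mice and higher at 7 d, as given below.

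Across the 17 clusters, the ribosomal protein share followed that of other parts of the translation machinery. Elongation factors, the proteins that move the ribosome along its message, gave Pearson's r = 0.97 and Spearman's rho = 0.93. RNAs retained in the nucleus, chiefly Malat1, ran opposite with r = −0.68 and rho = −0.74. Mitochondrially encoded RNAs gave r = −0.11 and rho = −0.37, and median UMIs per cell r = −0.36 and rho = −0.33. The points share libraries and differ in depth, and all shares are parts of 1 total, so these values describe the clusters and were not tested.

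Lists of related genes placed the same clusters at the ends. Ribosomal proteins outside the naming rule, such as Fau (1150 ± 461 CPM), Rps3a1 and the scaffold Rack1, ranged from 0.817% in Cluster 12 to 0.0380% in Cluster 7. Elongation factors, led by Eef1a1 at 1398 ± 470, ranged from 0.569% in Cluster 10 to 0.0510% in Cluster 7. Other messages with a pyrimidine tract, led by Tpt1, ranged from 2.03% in Cluster 12 to 0.140% in Cluster 7, though this list shares Eef1a1 and Fau with the lists before it. Initiation factors had a narrower range, 0.692% in Cluster 12 to 0.203% in Cluster 7, as did ribosome biogenesis genes, 0.309% in Cluster 12 to 0.106% in Cluster 16. Components of the mTOR to S6 kinase pathway did not follow the order, with rho = −0.16 to the ribosomal protein share and the highest value, 0.110%, in Cluster 15. Nuclear RNAs were highest in pericytes, at 4.29%, and lowest in Cluster 2, at 0.697%.

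The proportion of the subunits varied less between clusters than the total did. The ratio of small to large subunit UMIs lay between 0.738 ± 0.0369 (n = 5) in Cluster 15 and 0.935 ± 0.105 (n = 5) in Cluster 16. In Clusters 12, 10 and 6 it stood at 0.852 ± 0.0374, 0.841 ± 0.0424 and 0.862 ± 0.0404, and in Cluster 7 at 0.759 ± 0.0527.

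Single members departed from the common pattern by more. Rplp0, the scaffold of the stalk that recruits translation factors, made up 2.16% ± 0.973 (SD) of ribosomal protein UMIs in Cluster 15 and 0.494% ± 0.320 in neurons, a ratio of 4.36. Rps9, a small subunit protein near the entry of the message, held 4.32% ± 2.34 in Cluster 16 against 1.18% ± 0.363 in fibroblasts, a ratio of 3.67. Rpl3, which lies beside the peptidyl transferase centre, held 1.47% ± 0.787 in Cluster 15 against 0.409% ± 0.305 in Cluster 16. Rpl10a, the protein of the stalk by which spent transfer RNA leaves, held 0.793% ± 0.307 in Cluster 11 against 0.286% ± 0.253 in Cluster 16. The Cluster 16 values of Rpl3 and Rpl10a rest on only 27 and 14 UMIs. Rps27, a zinc-finger protein of the small subunit, held 3.72% ± 2.14 in Cluster 16 against 1.41% ± 0.258 in Cluster 17. Clusters 15, 16 and 17 rest on 4 or 5 mice each, and these members were picked for the largest ratios among clusters, out of those with a mean part of at least 0.5%.

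Some members with known further roles were also lowest in Cluster 7. Rpsa, also known as the laminin receptor, had 1777 CPM in Cluster 10 and 119 in Cluster 7, as a mean over mice. Rps27a, which is made as a fusion with ubiquitin, had 2143 and 139, and Rps6, the substrate of S6 kinase, 613 and 47.8. Rpl5 and Rpl11, which form the particle with 5S RNA that can bind Mdm2, had 936 and 1479 in Cluster 10 against 55.8 and 105 in Cluster 7. The order in between varied. Rpsa was higher in Cluster 2, at 1252, than in Cluster 6 microglia, at 1122, and Rpl38, which is needed for patterned translation in the embryo, was higher in endothelial cells, at 1613, than in Cluster 6, at 1178.

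Paralogs of ribosomal proteins were a minor part of most pairs, with differences between clusters. Rps27l, a p53 target, held 9.59% of the UMIs of the pair with Rps27, from 3.70% in Cluster 2 to 21.6% in oligodendrocyte precursors. Rpl22l1 held 25.8% of its pair with Rpl22, from 17.8% in Cluster 6 to 40.5% in Cluster 5, and Rpl36al held 23.7% of its pair with Rpl36a, from 14.6% in Cluster 13 to 32.7% in Cluster 8. Rpl7l1 stood at 11.4% of its pair with Rpl7, from 3.82% in Cluster 2 to 29.1% in Cluster 7, and these last 3 fall outside the naming rule. Rps4l, annotated as a transcribed pseudogene, reached 17.5% of its pair with Rps4x in pericytes. It held 1.21% in Cluster 10, 0.996% in Cluster 12 (13 UMIs) and 0% in Cluster 16. Of the 70 UMIs of Rpl39l, 48 were in Cluster 10. Rpl3l held 0.264% of its pair over the mice with enough cells in a cluster, with 57 UMIs, but 3.45% in Cluster 7 with 12 UMIs and 34.1% in Cluster 16 with 14.

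Over time the share in all cells followed opposite orders in the 2 batches, which the cell table numbers as the replicates. Cluster means ranged from 0.787% to 14.1%, so this share also depends on the mix of cells in each mouse, whose part was not tested. The batch 1 mice at 14 d do not have low animal numbers, unlike the other mice of that batch. In batch 1 the uninjured mice were lowest, with 3.01% in WT and 2.63% in cKO, and every later mouse was higher: 5.49% and 5.14% at 1 d, 4.91% and 6.32% at 7 d, 7.29% and 5.25% at 14 d. In batch 2 the uninjured mice were highest, at 5.71% and 5.38%, followed by 5.01% in the cKO mouse at 1 d, 4.58% in both at 7 d, and 3.93% and 4.41% at 14 d. Pooled, the means were 4.18% ± 1.59 uninjured (n = 4), 5.21% ± 0.246 at 1 d (n = 3), 5.10% ± 0.83 at 7 d (n = 4) and 5.22% ± 1.49 at 14 d (n = 4), so the spread between mice covers the differences. Counting error is far smaller: the shallowest library, WT 1 d replicate 1, has an exact 95% binomial interval of 5.42% to 5.55%, which covers counting error only.

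Of the 17 clusters, 4 were tested gene by gene: endothelial cells, Cluster 7 astrocytes, Cluster 6 microglia and Cluster 4 oligodendrocytes. In endothelial cells the batch 2 mice went from 6.12% in both uninjured mice to 4.26% and 4.23% at 7 d, whereas batch 1 went from 4.16% and 5.37% to 4.48% and 4.87%. In Cluster 4, batch 2 went from 3.44% and 3.98% to 1.79% and 1.84%, and batch 1 from 1.57% and 1.58% to 2.16% and 2.09%. Cluster 7 had 1.10% and 1.19% uninjured against 0.511% and 0.543% at 7 d in batch 2, and 0.533% and 0.720% against 0.948% and 0.740% in batch 1. In Clusters 4 and 7 the batches thus went in opposite directions at 7 d, and time and library cannot be told apart there.

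In Cluster 6 microglia and in Cluster 4 every mouse at 1 d was above the uninjured mice of its own batch. Cluster 4 had 2.69% and 2.68% against 1.57% and 1.58% uninjured in batch 1, and 4.35% against 3.44% and 3.98% in batch 2, so the times overlap when the batches are pooled. In Cluster 6 the 3 uninjured mice held 8.04%, 7.99% and 7.82%, and the 3 mice at 1 d held 10.6%, 9.69% and 10.0%, with no overlap. Marker lists differed between these mice as well: the microglial list stood at 2.09%, 2.20% and 2.06% at 1 d against 2.96%, 2.65% and 2.66%, the fibroblast list at 0.0315%, 0.0214% and 0.0333% against 0.000862%, 0.00284% and 0%, and the endothelial list at 0.0588%, 0.0259% and 0.0310% against 0.00690%, 0.00378% and 0.0205%. The red blood cell list stood at 0.0147%, 0.00916% and 0.00959% against 0.00172%, 0.00662% and 0.00316%. For the neuron list it was 0.0231%, 0.0336% and 0.0265% against 0.0168%, 0.0161% and 0.0174%. Nuclear RNAs stood at 1.23%, 1.54% and 1.38% against 2.19%, 1.77% and 1.88%. At 7 d batch 1 stood at 10.5% and 11.9% and batch 2 at 7.67% and 7.84%. At 14 d the WT mouse of batch 1 reached 13.0%, and the other 3 ranged from 7.02% to 8.62%.

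**Figure D2:**
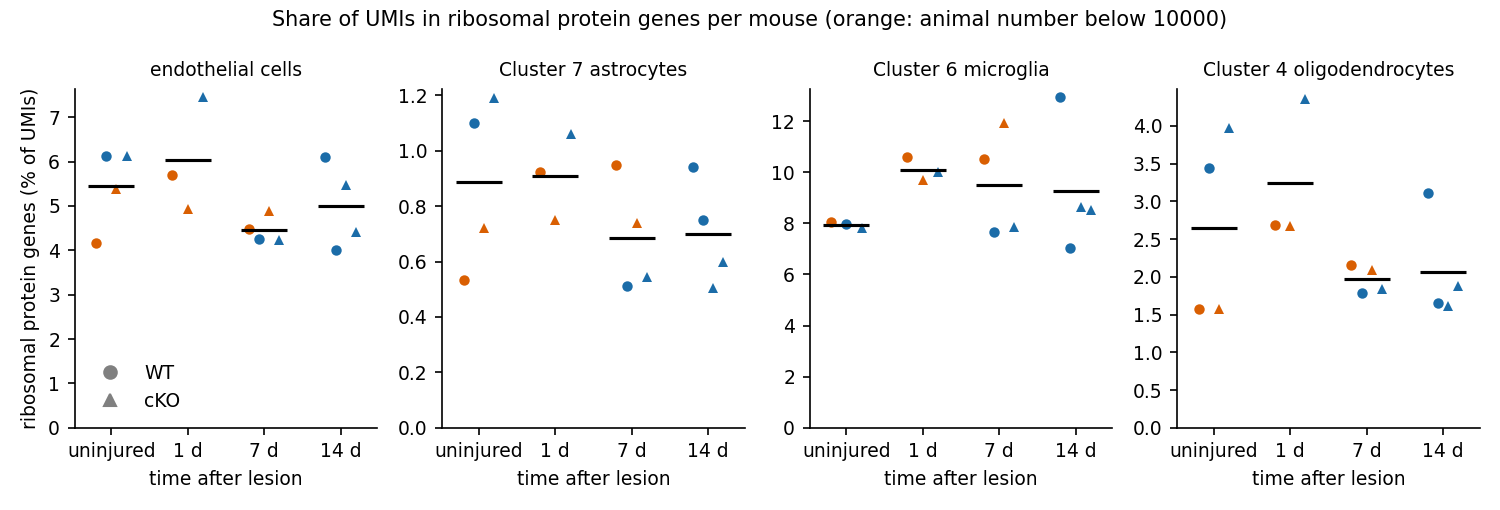
Share of UMIs in ribosomal protein genes (percent, y axis) by time after the lesion in the 4 clusters tested. Points are mice (circles WT, triangles cKO, orange for animal numbers below 10000), lines are means. In Cluster 6 microglia the 3 mice at 1 d lie between 9.69% and 10.6%, above the uninjured mice at 7.82% to 8.04%.

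With all usable mice, 1 of the tests on members passed an adjusted p of 0.05 (edgeR, adjusted over all genes tested): Rpl23a in Cluster 6 microglia at 7 d. Each of the 4 clusters was compared with uninjured mice at 1, 7 and 14 d and between genotypes, and members entered 1236 tests in these 16 comparisons. The other 15 comparisons had 0 members called in this fit. With the animal number series as a term, edgeR called 1 and 5 members in endothelial cells at 7 and 14 d (1.54% and 3.75% of all genes), 3 and 1 in Cluster 7 (0.566% and 0.291%) and 3 in Cluster 4 at 14 d (1.83%), all lower, and 2 and 2 in Cluster 6 at 7 and 14 d (0.198% and 0.297%), all higher. In the fit without this term, before adjustment 147 of these tests (11.9%) had a p under 0.05, against 6.65% of the tests on all genes. DESeq2 called 13 of the 1207 tests on members to which it gave an adjusted p (1.08%), against 0.306% of such tests on all genes. In each comparison that holds these calls, the share of all genes called was above this pooled 0.306%, as given under the dependence on processing. Of all genes tested, edgeR called 0.0544%, 0%, 0% and 0% in endothelial cells at 1 d, 7 d, 14 d and for cKO against WT. In the same order, the values were 0.187%, 0.0187%, 0.131% and 0.0187% in Cluster 7, 0.478%, 0.0552%, 0% and 0% in Cluster 6, and 0%, 0%, 0% and 0% in Cluster 4. Between 76 and 78 members passed the filter on low counts in each cluster. Rpl32l, Rpl6l, Rpl39l and Rpl3l passed in none, Rps4l in 2 clusters and Rpl13a in 3.

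Rpl23a, a large subunit protein at the exit of the peptide tunnel, rose in Cluster 6 microglia at 7 d. The uninjured mice had 233, 180 and 158 CPM, and the 4 mice at 7 d had 859.5, 667, 813 and 568. At 1 d the values were 504, 595 and 484, and at 14 d 410, 610, 814 and 637. Every injured mouse thus lay above every uninjured mouse, in both batches. Markers moved in the same mice: the peripheral myeloid and immune list, led by Lyz2, stood at 0.0698%, 0.0775% and 0.0474% of UMIs uninjured against 0.163%, 0.112%, 0.208% and 0.0847% at 7 d and 0.115% to 0.146% at 14 d, and the microglial list at 2.65% to 2.96% against 2.11% to 2.59% at 7 d and 2.29% to 2.39% at 14 d. Their part in the change of Rpl23a was not tested. The log2 change was 1.80 ± 0.31 (SE) at 7 d (adjusted p = 0.040), 1.31 ± 0.34 at 1 d (adjusted p = 0.0887) and 1.54 ± 0.31 at 14 d (adjusted p = 0.143). The call at 7 d was lost, leaving 0 members, without any 1 of 9 mice: WT uninjured replicate 2, cKO uninjured replicate 2, WT 1 d replicate 1, both WT 7 d mice, cKO 7 d replicate 1, WT 14 d replicate 2 and both cKO 14 d mice. Leaving out 1 mouse moved the log2 change between 1.65 and 1.98.

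As a group, the members were mostly lower at 7 and 14 d in 3 clusters, without passing the test in the fit of time and genotype alone. In endothelial cells 71 of 78 were lower at 7 d, with a median log2 change of −0.61 against −0.05 over all 9186 genes tested, and 29 had an unadjusted p under 0.05, as did 11.5% of all genes. In Cluster 7 astrocytes 71 of 76 were lower, with a median of −0.67 against −0.04 and 29 under 0.05 (8.76% of all genes). In Cluster 4 oligodendrocytes 68 of 77 were lower, with a median of −0.60 against −0.01 and 12 under 0.05 (5.85%). At 14 d the medians were −0.40, −0.46 and −0.55 in the same clusters, with 16, 13 and 7 members under 0.05, against 9.94%, 8.88% and 7.05% of all genes. The 3 times share the uninjured mice.

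At 1 d the medians in these clusters were 0.01, 0.22 and 0.19, with 4, 1 and 5 members under 0.05, against 5.54%, 6.78% and 4.26% of all genes. Cluster 6 microglia differed in sign at 7 and 14 d, with medians of 0.37 at 1 d, 0.22 at 7 d and 0.19 at 14 d, and 14, 10 and 6 of 78 members under 0.05, against 14.2%, 6.61% and 6.88% of all genes. Over all genes tested the medians there were −0.04, 0.00 and 0.02. Whether clusters differed from each other in these changes was not tested.

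The medians at 7 and 14 d depended on the mice that were kept. Without the 6 mice with low animal numbers, the median at 7 d was −1.07 in endothelial cells, −1.16 in Cluster 7 and −1.25 in Cluster 4. Without the 3 mice with little Rps12 it was −0.04, 0.12 and 0.40, and without the mice whose cell names give another condition −0.03, 0.23 and 0.48. At 14 d the medians were −0.75, −0.88 and −1.02 in the first case, 0.16, 0.38 and 0.45 in the second, and 0.35, 0.39 and 0.61 in the third. These 3 sets were chosen after seeing the data, and each holds injured mice as well as uninjured ones. In Cluster 6 the median at 7 d was −0.20, 0.35 and 0.69 in the same order, and at 1 d and 14 d it kept its sign, with 0.54, 0.34 and 0.59 at 1 d and 0.23, 0.34 and 0.71 at 14 d. The last 2 values of each of these compare with 1 uninjured mouse, WT uninjured replicate 1. The 1 d medians of the other clusters were 0.08, −0.09 and 0.20 in the first case, 0.28, 0.43 and 0.86 in the second, and 0.51, 0.96 and 1.26 in the third.

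Calls also depended on the mice kept. Without the low animal numbers, 52 of 78 members were called in endothelial cells at 7 d, 51 of them lower, where 11.5% of all genes tested were called. At 14 d it was 32 of 78, 31 of them lower, with 9.37% of all genes called. Cluster 7 had 20 of 77 at 7 d (1.40% of all genes) and 8 at 14 d (0.903%), and Cluster 4 had 8 of 79 at 7 d (0.859%) and 22 at 14 d (2.14%), all lower. Cluster 6 had 0 at 7 d (0.104% of all genes, 11 members and 12.4% of all genes at an unadjusted p under 0.05, DESeq2 not run on this set) and 2 at 14 d, both higher (0.255%). That fit rests on 2 uninjured mice, both from the set with little Rps12, and on 1 mouse at 1 d, which is assumed to vary like the other groups. Without either of the other sets, edgeR called 0 members in these 4 clusters at 7 and 14 d, with 4 to 16 members per comparison at an unadjusted p under 0.05 without the mice with little Rps12 (4.68% to 8.26% of all genes) and 3 to 15 without those whose cell names differ (2.16% to 5.97%). In Cluster 6 both of these fits rest on 1 uninjured mouse. With all other mice kept, leaving out WT uninjured replicate 1 gave 10 calls in Cluster 7 at 7 d (1.22% of all genes), 2 at 14 d (0.708%), and 2 in endothelial cells at 14 d (0.504%), all lower.

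**Figure D3:**
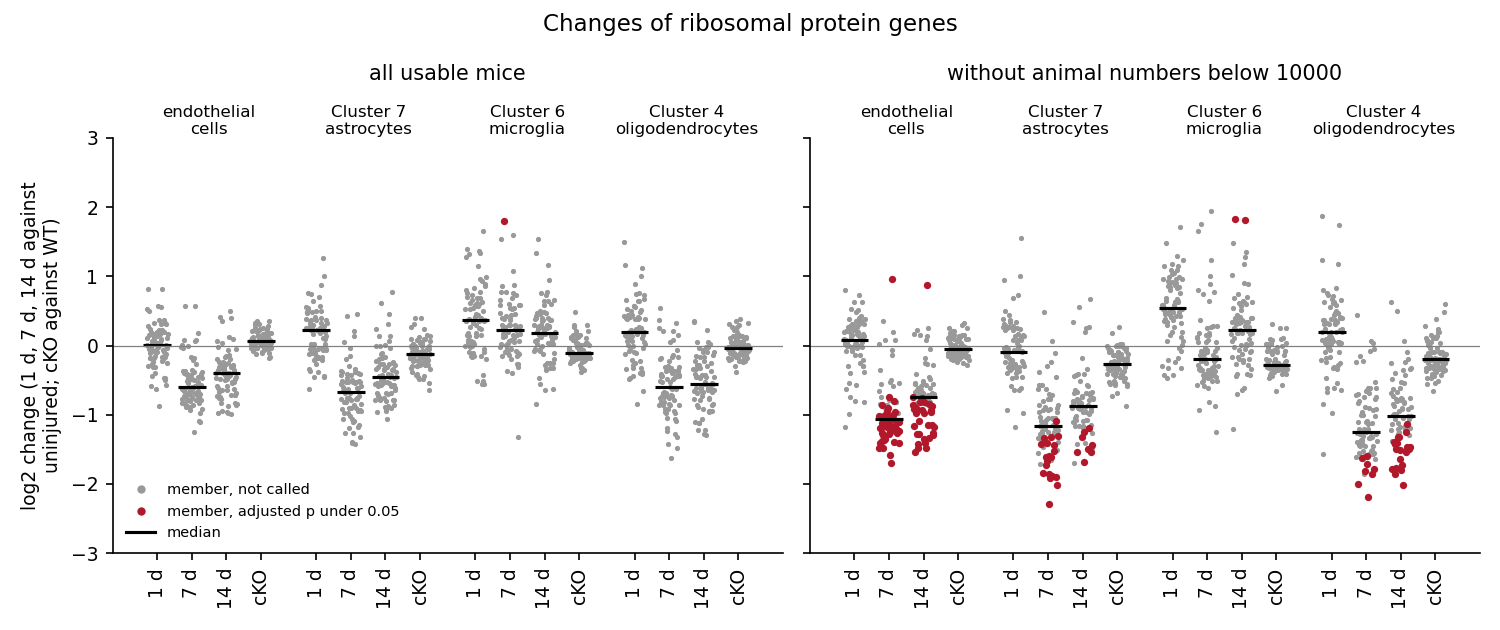
Log2 changes of single members (points) in the 4 clusters at 1, 7 and 14 d against uninjured mice and in cKO against WT, with all usable mice (left) and without the mice with animal numbers below 10000 (right). Red points have an adjusted p under 0.05 and black lines are medians. In endothelial cells at 7 d the median is −0.61 on the left and −1.07 on the right.

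The members with the largest falls in that smaller set are given here with the values of all uninjured mice. These members were chosen in a fit with the replicates 2 as its only uninjured mice, so the choice itself favours high values there. Rps10, a small subunit protein that is ubiquitinated when ribosomes stall, had 617 and 736 CPM in endothelial cells of the uninjured replicates 2, but 77.8 and 469 in the replicates 1. The 4 mice at 7 d had 315, 320, 99.0 and 243, so they lie between WT uninjured replicate 1 and the other 3 uninjured mice. Its log2 change at 7 d was −1.69 ± 0.30 (adjusted p = 0.00696) without the low animal numbers and −1.24 ± 0.60 (adjusted p = 0.441) with all mice. In Cluster 4 oligodendrocytes Rps10 had 466 and 560 in replicates 2 and 20.2 and 212 in replicates 1, against 164, 120, 58.4 and 143 at 7 d.

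Rplp0 behaved alike in Cluster 7 astrocytes. Uninjured replicates 2 had 109 and 128 CPM and replicates 1 had 20.5 and 78.3, against 79.6, 17.1, 112 and 31.1 at 7 d, where the high values of 79.6 and 112 came from replicates 1. The replicates 1 at 7 d held 37676 and 35670 UMIs in Cluster 7, so both values rest on few UMIs. The log2 change of Rplp0 was −2.29 ± 0.38 (adjusted p = 0.0059) without the low animal numbers and −1.40 ± 0.49 (adjusted p = 0.344) with all mice. Among further falls in that set, Rpl27, Rpl15 and Rpl27a of the large subunit fell by 1.49 in endothelial cells at 7 d, by 1.53 there at 14 d and by 1.48 there at 14 d. With all mice these were −0.72, −0.97 and −0.84 (adjusted p = 0.539, 0.468 and 0.552). At 14 d in Cluster 7, Rps28 of the small subunit fell by 1.54, and in Cluster 4 Rpl7 of the large subunit fell by 1.80, against −0.78 and −1.28 with all mice (adjusted p = 0.595 and 0.497). The uninjured replicates 1 had 68.2 and 39.1 CPM of Rps28, below the 4 mice at 14 d, which had 143, 139, 82.4 and 91.5. For Rpl7 in Cluster 4, WT and cKO uninjured replicate 1 had 115 and 137 CPM, against 74.3, 96.2, 121 and 123 at 14 d. There cKO uninjured replicate 1 lay above all 4 mice at 14 d.

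Rps15, a protein of the head of the small subunit, went the other way. In endothelial cells it had 278 and 253 CPM in the uninjured replicates 2 and 472 and 645 in replicates 1, while the mice at 7 d had 678, 692, 683 and 701. All 4 mice at 7 d therefore lay above all 4 uninjured mice. Its log2 change was 0.95 ± 0.22 (adjusted p = 0.0215) without the low animal numbers and 0.56 ± 0.22 (adjusted p = 0.406) with all mice. In Cluster 6 microglia at 14 d it was 1.81 ± 0.37 (adjusted p = 0.0464) and 1.17 ± 0.43 (adjusted p = 0.558), and Rpl23a was called there as well, at 1.82 ± 0.34 (adjusted p = 0.0287). Rps15 had 677, 293 and 205 CPM in the uninjured mice of that cluster against 465, 916, 1114 and 1306 at 14 d, so the groups overlap.

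RNA of other cell types moved with the uninjured libraries. In endothelial cells the astrocyte list had 8 of 10 genes tested, none called, with a median log2 change of −1.55 at 7 d, and the oligodendrocyte list had 8 of 10 tested, none called, with −0.91. No gene of either list was at 0 over all mice. The oligodendrocyte markers, led by Mbp, summed to 0.803% and 0.790% of UMIs in the uninjured replicates 2 and 0.516% in cKO 1 d replicate 2. In the other 12 mice they lay between 0.163% and 0.346%. In Cluster 4 the astrocyte markers, led by Slc1a2, summed to 0.278%, 0.280% and 0.222% in these 3 libraries and to at most 0.152% in the rest. Nuclear RNAs in endothelial cells were lowest in the same 3 libraries, at 1.39%, 1.45% and 1.72%, against 2.02% to 3.89% in the other 12 mice. The part of these markers and RNAs in the changes of ribosomal protein genes was not tested.

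Where no member was called, members with the smallest p in a comparison were examined. In endothelial cells Rpl12 had 370, 208, 238 and 215 CPM in uninjured mice against 625, 431 and 451 at 1 d, without overlap, and a log2 change of 0.81 ± 0.23 (adjusted p = 0.511). Rps4l had −1.10 ± 0.33 at 7 d (adjusted p = 0.406) and Rpl3 −0.95 ± 0.25 at 14 d (adjusted p = 0.422). All 4 mice had 319 to 388 CPM of Rpl3 at 14 d, below the 445 to 687 of the uninjured mice.

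In Cluster 7 astrocytes Rps25, a small subunit protein used by viral internal ribosome entry sites, had 1.27 ± 0.49 at 1 d (adjusted p = 0.525), with 20.5, 21.7, 39.1 and 85.5 CPM uninjured against 64.4, 108 and 124. Its value for cKO uninjured replicate 2 overlaps the 1 d mice, and leaving out 1 mouse moved the change between 0.72 and 2.22. Rps15a of the small subunit had −1.42 ± 0.40 at 7 d (adjusted p = 0.256), and Rpl6 of the large subunit −0.89 ± 0.30 at 14 d (adjusted p = 0.285), between −1.08 and −0.47 without 1 mouse. In Cluster 4 oligodendrocytes Rpl10a had 1.5 ± 0.42 at 1 d (adjusted p = 0.873), with 110, 155 and 189 against 44.5, 74.6, 24.9 and 76.4 uninjured. Rpl3 had −0.97 ± 0.34 at 7 d (adjusted p = 0.787) and Rpl7 −1.28 ± 0.39 at 14 d (adjusted p = 0.497).

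Loss of Ryk in astrocytes was compared with WT across all times, in a fit with time and genotype as separate terms. No member was called by edgeR in the 4 clusters, nor by DESeq2, and at an unadjusted p under 0.05 there was 1 member in Cluster 6 (1.58% of all genes) and 0 in endothelial cells, Cluster 7 and Cluster 4 (1.33%, 3.16% and 1.34%). Medians of the members were 0.06 in endothelial cells, −0.13 in Cluster 7, −0.11 in Cluster 6 and −0.04 in Cluster 4, against 0.00, 0.00, 0.00 and −0.01 over all genes tested. The member with the smallest p was Rpl31, a protein beside the peptide exit, in Cluster 6, with a log2 change of 0.49 ± 0.18 (adjusted p = 1.00). Its values were 181 to 449 CPM in WT mice (median 329.5) and 300 to 589 in cKO mice (median 483), so the genotypes overlap. Rpl31 also had the smallest p in endothelial cells, at 0.35 ± 0.19, and in Cluster 4 it was Rpl36a at −0.39 ± 0.34, between −0.58 and −0.15 without 1 mouse. Without the low animal numbers the medians were −0.05 in endothelial cells, −0.26 in Cluster 7, −0.28 in Cluster 6 and −0.20 in Cluster 4, with 0 members called and 0, 9, 0 and 2 at an unadjusted p under 0.05, against 3.62%, 5.24%, 3.56% and 3.77% of all genes.

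Genes that work with ribosomal proteins gave no calls by edgeR and 0 to 3 per list by DESeq2, which called 0.306% of all tests given an adjusted p. Over the 16 comparisons edgeR called 0 of 96 tests on ribosomal proteins outside the naming rule (16.7% at an unadjusted p under 0.05, 2 called by DESeq2), 0 of 84 on elongation factors (14.3% and 1) and 0 of 492 on initiation factors (9.15% and 3). For the other messages with a pyrimidine tract it was 0 of 308 (14.0% and 2), and for ribosome biogenesis 0 of 348 (7.47% and 0). The mTOR to S6 kinase list had 0 of 160 (8.75% and 0), and nuclear RNAs 0 of 132 (10.6% and 1). Of the tests on all genes, 6.65% had an unadjusted p under 0.05.

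Promoters of the members hold several short motifs more often than promoters at large. The table of mouse promoters (GRCm38.p6, 250 bases before to 50 bases after the gene start) has 60 of the 82 members among 27025 genes. On both strands, CCGGAAG was found in 41.7% of members against 9.93% of all genes, AAGATGG in 15% against 7.28% and GGGCGG in 58.3% against 38.2%. TATAAA was found in 11.7% against 15.7%, and CTTTCC in 51.7% against 29.3%. Within 30 bases of the start on the sense strand, CTTTC, the core of a pyrimidine tract that overlaps CTTTCC, was found in 36.7% against 9.18%, and CCTTTTC in 6.67% against 0.659%. These are matches of letters and were not tested.

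Of the windows of 30 bases around the start in 28 named members, 5 hold CTTTC or CCTTTTC. With CTTTC in capitals, the tract is shown for Rplp2, a stalk protein (chromosome 7, plus strand, 141447641 to 141447670), Rps27 (chromosome 3, minus strand, 90213629 to 90213658), Rpl38 (chromosome 11, plus strand, 114668570 to 114668599) and Rpl12 (chromosome 2, plus strand, 32961702 to 32961731). The window of Rplp0 (chromosome 5, plus strand, 115559457 to 115559486) does not hold these letters. Starts in the promoter table can lie inside the annotated gene, as for Rplp2, which is annotated from 141447370.

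Rplp2: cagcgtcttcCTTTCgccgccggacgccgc

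Rps27: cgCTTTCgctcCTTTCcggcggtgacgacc

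Rpl38: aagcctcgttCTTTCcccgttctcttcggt

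Rpl12: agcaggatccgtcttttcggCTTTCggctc

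Rplp0: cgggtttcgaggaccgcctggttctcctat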

How the data were processed

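The deposited matrix holds raw UMI counts per gene and cell, and the deposited cell table holds counts of UMIs and genes per cell, mitochondrial and haemoglobin UMIs in percent, and other labels (animal number, batch, condition, cluster). The authors aligned 3′ libraries with Cell Ranger to mm10, kept cells with under 25% mitochondrial UMIs, and clustered and named the cells. No doublets were called or removed here.

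Members and gene lists were chosen with earlier results of these data known. UMIs were summed per mouse and cluster (at least 10 cells per mouse in the cluster and 50 in all). Shares are percent of UMIs, given as means over mice. Changes were fitted with edgeR 4.0.16 in R 4.3.3 (quasi-likelihood F test, TMM, filterByExpr, time plus genotype), with Benjamini-Hochberg adjustment over all genes tested and a threshold of 0.05. Named members were the 5 highest and 5 lowest, up to 3 called per direction and comparison or else the smallest p, the 5 most variable between clusters, and those with a fixed further role; members called in the smaller set were named by the same rule. Results of 1 member are not reported here. The cell table gives the replicate number as the batch. Deviations of mice with the same number from their group means had median correlations across genes of 0.0842 in endothelial cells, 0.0402 in Cluster 7, 0.0183 in Cluster 6 and 0.200 in Cluster 4. Gene positions come from GENCODE M21.

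Alternatives were DESeq2 1.42.0, no filter on low counts, no TMM, the replicate as a block, the animal number series as a term, at least 30 cells, the conditions of the cell names, and leaving out each mouse. For shares they were a mean over cells, other denominators and leaving out the most abundant member. Leaving out the mice with low animal numbers (for calls), shared barcodes, other conditions in the cell names or a part of Rps12 below 1.5% was added after seeing the data.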

Additional observations from a re-analysis of the deposited data

Results flagged for a closer look

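Among 72 groups of 4 to 10 mice examined for a sample far from the others, 4 held one, and chance gives about 1 in 20 groups. The share of ribosomal protein UMIs in Cluster 12 (Immuno) was 22.1% in WT 14 d replicate 1, which had 10 cells there, against 11.4% to 16% in the other 9 mice. Rpl12 in endothelial cells at 7 d had 366 CPM (UMIs per 1000000 UMIs) in cKO replicate 1 against 285 to 293 in the other 3 mice. Rpl6 in Cluster 7 astrocytes had 155 in uninjured cKO replicate 2 against 78.3 to 86.9, and 106 in WT 7 d replicate 1 against 54.2 to 58.3. WT 7 d replicate 1 and cKO 7 d replicate 1 held 37676 and 35670 UMIs in that cluster, so their values rest on few UMIs of Rpl6.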

How the results depend on the processing

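Counts of members called moved in some comparisons. DESeq2 called 1 in endothelial cells at 1 d and 4 at 14 d (0.39% and 3.68% of the genes it gave an adjusted p), and 4, 2 and 2 in Cluster 6 at 1, 7 and 14 d (4.29%, 1.77% and 5.88%). Without a filter on low counts there were 3 in endothelial cells at 7 d (0.641% of all genes) and 3 and 2 in Cluster 6 at 7 and 14 d (0.284% and 0.241%). With the animal number series as a term there were 1 and 5 in endothelial cells at 7 and 14 d (1.54% and 3.75%), 3 and 1 in Cluster 7 (0.566% and 0.291%), 2 and 2 in Cluster 6 (0.198% and 0.297%), and 3 in Cluster 4 at 14 d (1.83%). The call of Rpl23a in Cluster 6 at 7 d gave 0 with at least 30 cells per mouse (log2 change 1.65) and when the cell names gave the conditions (1.46). It also gave 0 under the alternatives added after seeing the data: without low animal numbers (1.76), without shared barcodes (1.55), without the mice whose cell names differ (1.60), and without the mice with little Rps12 (1.52). The last 2 fits have 1 uninjured mouse in Cluster 6. Without low animal numbers the other counts that moved were 52 and 32 in endothelial cells at 7 and 14 d (11.5% and 9.37%), 20 and 8 in Cluster 7 (1.40% and 0.903%), 8 and 22 in Cluster 4 (0.859% and 2.14%), and 2 in Cluster 6 at 14 d (0.255%). The cause was not tested.

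Leaving out 1 mouse at a time gave 0 to 1 in Cluster 6 at 7 d, 0 to 10 and 0 to 2 in Cluster 7 at 7 and 14 d, and 0 to 2 in endothelial cells at 14 d. With the replicate as a block the counts were the same in the 16 comparisons, with 1 in Cluster 6 at 7 d. Without TMM the median of all genes in endothelial cells was 0.21 at 7 d and 0.22 at 14 d, and that of the members −0.30 and −0.12, so the members remained lower than all genes.

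The 15 changes of members with the smallest p or of Rpl23a kept their direction in all alternatives run. Apart from leaving out single mice, 147 kept their side of the threshold, 12 passed it and 6 no longer did. Shares by cluster moved by less than 1 SD in 146 of 147 settings. The exception was the share of all cells at 1 d, which was 4.67% as a mean over cells. For shares by cluster and time, 10 settings moved by more and 102 did not. Cluster 6 uninjured went from 7.95% to 7.34% without the most abundant member, 8.18% without mitochondrial UMIs, 8.1% without nuclear RNAs and 7.09% as a mean over cells. At 1 d it went from 10.1% to 9.62% without the most abundant member and 9.30% as a mean over cells. Without low animal numbers or without shared barcodes, 1 mouse at 1 d gave 7.46% in endothelial cells and 4.35% in Cluster 4, where the means were 6.03% and 3.24%.

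Depth limits what the 4 shallow libraries can show in Cluster 7, where they held 27728 to 37676 UMIs each. WT at 1 d rests on 1 mouse, and the genotype effect was not fitted separately by time.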

Other observations

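Some marker genes changed in the same fits at 1 d. Gfap, the intermediate filament of reactive astrocytes, rose in Cluster 7 astrocytes at 1 d, with a log2 change of 2.29 ± 0.35 (edgeR, adjusted p = 0.000677). It was the only 1 called of the 10 astrocyte markers, all tested, which had a median of −0.26. In Cluster 6 microglia at 1 d, P2ry12, a purinergic receptor of resting microglia, had −1.50 ± 0.31 (adjusted p = 0.0377), and Gpr34, a lysophosphatidylserine receptor, had −1.48 ± 0.33 (adjusted p = 0.0469), out of 10 microglial markers, all tested, with a median of −0.74. Both fell while the median of the ribosomal protein genes in that cluster was 0.37, none of them called by edgeR.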
